A study of Mus musculus with 4 samples.

Results

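The immediate early response genes Fos, Fosb, Jun, Junb, Jund, Egr1, Egr2, Ier2, Atf3 and Dusp1 were followed through 4 RNA sequencing libraries of the fetal mouse gonad. They are 10 of the 20299 genes kept, were chosen by symbol, and each matched 1 row. The libraries held germ cells of male fetuses, germ cells of female fetuses, and the gonadal somatic cells of each sex, all taken at 15.5 days post coitum (dpc), with 1 library in each group. All came from the same cross, CF1 mothers with TgOG2 fathers, whose transgene makes the Oct4 promoter drive green fluorescent protein in germ cells. Germ cells were sorted as fluorescent and somatic cells as non-fluorescent, so the somatic libraries mix every other cell type of the gonad. The study set out to map transcription in these fractions, and the labels do not give the number of fetuses behind a library.

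Immediate early genes are transcribed within minutes of a stimulus such as a growth factor, cell stress or tissue handling, from transcription factors that are already present in the cell. Their mRNAs are short-lived. FOS and JUN proteins pair to form AP-1, EGR proteins are zinc finger activators, and DUSP1 is a phosphatase that switches MAP kinases off again. JUND differs from the other JUN proteins in being made in many resting cells.

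The genes lie on 8 chromosomes, and their rows are compact. They span a median of 3279 bases of genome, against 16934 over all genes, whereas their transcript length has a median of 2488 bases against 2442. On the mm9 build Fos lies at chr12:86814850-86818219, Fosb at chr7:19888044-19895394, Jun at chr4:94715726-94718913, Junb at chr8:87500807-87502647 and Jund at chr8:73221637-73224515. Egr2 lies at chr10:67000616-67004936, Ier2 at chr8:87185229-87186751, Atf3 at chr1:192994175-193007212 and Dusp1 at chr17:26642535-26645417. No other gene row overlaps any of them, so no antisense partner in the files shares their reads.

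Promoter windows of RefSeq (build GRCm38.p6), from 250 bases before to 50 after each annotated start, matched 8 of the 10 genes. They are shown for 4 genes to set side by side the elements through which calcium, cAMP and growth factor signals are known to reach such promoters. Motifs were searched on both strands and within the windows of these 8 genes only, so an element further from the start would be missed. Ier2 and Egr1 had no window. Egr2 had 5 windows, and so more sequence to match, whereas each other matched gene had 1. TGACG, the core of the cAMP response element and also contained in the full element TGACGTCA, was present in the windows of 6 of the 8 genes (Fos, Fosb, Junb, Egr2, Atf3 and Dusp1), against 23.0% of all 27025 genes. The CArG box bound by serum response factor was in the Egr2 windows alone, against 1.81% of all genes. TGACGTCA was in Dusp1 alone against 2.03%, the EGR site GCGNGGGCG in Fosb alone against 6.27%, and TATAAA in Fos and Junb against 15.7%. The AP-1 site TGANTCA was in none of the 8 windows, against 8.97% of all genes, and the Jun and Jund windows held none of the 6 motifs. In the windows below, 5′ to 3′ on the gene's strand, capitals mark every match. The Fos window is chr12:85473640-85473939 (+), Junb chr8:84978699-84978998 (-), Egr2 chr10:67537619-67537918 (+, 1 of its annotated starts) and Dusp1 chr17:26508423-26508722 (-).
Fos: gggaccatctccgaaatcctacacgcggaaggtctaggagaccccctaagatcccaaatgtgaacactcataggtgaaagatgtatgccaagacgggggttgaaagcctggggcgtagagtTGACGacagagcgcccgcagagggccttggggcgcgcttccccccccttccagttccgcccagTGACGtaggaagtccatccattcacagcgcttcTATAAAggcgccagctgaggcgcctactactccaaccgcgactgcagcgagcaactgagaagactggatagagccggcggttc
Junb: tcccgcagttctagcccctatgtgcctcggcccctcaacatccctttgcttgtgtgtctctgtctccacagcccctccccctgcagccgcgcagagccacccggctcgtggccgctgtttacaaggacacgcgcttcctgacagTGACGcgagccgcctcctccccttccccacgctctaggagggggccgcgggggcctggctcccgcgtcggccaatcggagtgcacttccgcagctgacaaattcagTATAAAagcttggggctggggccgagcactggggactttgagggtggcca
Egr2: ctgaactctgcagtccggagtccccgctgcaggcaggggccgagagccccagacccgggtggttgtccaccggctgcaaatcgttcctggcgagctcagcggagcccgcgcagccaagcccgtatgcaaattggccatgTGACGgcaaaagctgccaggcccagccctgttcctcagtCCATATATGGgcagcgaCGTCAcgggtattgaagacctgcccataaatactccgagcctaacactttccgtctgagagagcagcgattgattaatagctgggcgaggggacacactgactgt
Dusp1: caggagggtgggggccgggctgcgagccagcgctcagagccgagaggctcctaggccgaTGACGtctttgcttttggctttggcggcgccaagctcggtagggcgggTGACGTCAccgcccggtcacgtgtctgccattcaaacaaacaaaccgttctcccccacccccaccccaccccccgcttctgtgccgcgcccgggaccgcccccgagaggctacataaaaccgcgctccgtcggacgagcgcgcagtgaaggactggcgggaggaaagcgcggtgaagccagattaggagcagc

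Levels are given as scaled signal per 1000000 (SPM), which compares libraries and not genes. A gene listed at 0 could still hold 0.112 to 0.182 SPM in these libraries (3 fragments). As a check on the sort, the summed level of 9 germ cell core genes was 5744 SPM in male and 3799 SPM in female germ cells, against 73.4 SPM in male and 51.3 SPM in female somatic cells. The 11 stroma markers summed to 284.5 SPM in male and 115 SPM in female germ cells, against 19282 SPM in male and 6868 SPM in female somatic cells, so the germ libraries held 1.48% (male) and 1.67% (female) of the somatic level. Over the other 7 somatic marker lists the germ level was between 0.820% of the somatic level (erythroid, female) and 43.8% of it (endothelial, male). Among the defining markers, the leukocyte genes Ptprc and Cd53 were listed at 0 in both germ libraries, the pregranulosa gene Foxl2 in male germ cells, and the Leydig genes Cyp11a1, Cyp17a1 and Insl3 in female germ cells.

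Germ cells held far less RNA of most immediate early genes than somatic cells of either sex. Together the 10 genes summed to 147 SPM in male and 82.4 SPM in female germ cells, against 963 SPM in male and 2189 SPM in female somatic cells. All 10 genes had a fitted log2 ratio of germ over somatic below 0, as did 53.0% of all 14148 genes tested. Their median was -3.99, against -0.11 over all genes tested. Of the 10 genes 6, namely Fos, Fosb, Jun, Junb, Egr1 and Ier2, passed as lower in germ cells (limma, adjusted p under 0.05), and none passed as higher. Over all genes tested, 5.56% passed as lower and 2.5% as higher. For 9 of the 10 genes, all but Jund, both germ libraries lay below both somatic libraries, which held for 33.8% of all genes tested. In bulk libraries, fewer expressing cells and less RNA per cell cannot be told apart.

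**Figure D1:**
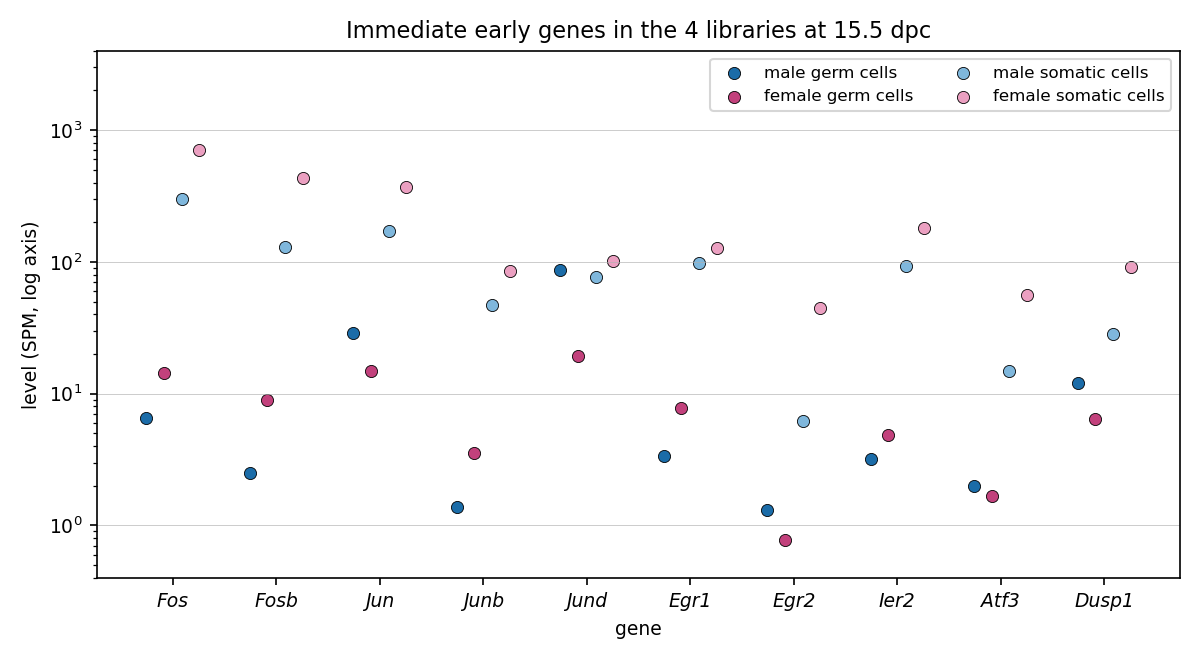
Level of each gene (SPM, log axis) with germ cells left of somatic cells and male left of female, 1 point per library. Both germ points lie below both somatic points for every gene but Jund, whose male germ point, at 86.1 SPM, lies between the somatic points at 77.0 and 102 SPM.

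Fos and Fosb had the lowest fitted log2 ratios of the 10 genes, although in female cells alone the ratio of Egr2 was lower still. Fos, the founding AP-1 subunit, stood at 6.51 SPM in male and 14.3 SPM in female germ cells, against 298 SPM in male and 701 SPM in female somatic cells. Fos fell in germ cells, with a fitted log2 difference of -5.49 ± 0.65 (SE over 2 libraries of each cell type, limma adjusted p = 0.0328), a 44.9-fold difference on the scale of SPM + 0.5. Fosb, a relative of Fos, had 2.50 SPM in male and 8.97 SPM in female germ cells, against 129 SPM in male and 433 SPM in female somatic cells. It fell by 5.48 ± 0.88 on the log2 scale (SE, 2 libraries a side, limma adjusted p = 0.0371). The groups did not overlap for either gene, and the ratio was nearly the same in each sex. Male germ cells held 2.18% of the male somatic level of Fos and 1.93% of that of Fosb, and female germ cells held 2.04% and 2.07% of the female somatic levels. These shares stand near the 1.48% and 1.67% found for the stroma markers in male and female cells. The other somatic marker lists ran from 0.820% (erythroid, female) to 43.8% (endothelial, male). What part carried-over somatic cells have in the shares of Fos and Fosb was not tested. Per kilobase of transcript, Fos ranked 86 among all genes in female somatic cells and 328 in male somatic cells, but 9673 in male and 7413 in female germ cells.

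The JUN family split. Jun stood at 28.7 SPM in male and 14.8 SPM in female germ cells, against 171 SPM in male and 367 SPM in female somatic cells. Jun fell by 3.57 ± 0.60 on the log2 scale (SE, 2 libraries a side, limma adjusted p = 0.0380). Junb, which can also hold back JUN activity, had 1.39 SPM in male and 3.52 SPM in female germ cells, against 47.1 SPM in male and 85.2 SPM in female somatic cells, and fell by 4.54 ± 0.73 (limma adjusted p = 0.0372). Jund went its own way, at 86.1 SPM in male and 19.2 SPM in female germ cells against 77.0 SPM in male and 102 SPM in female somatic cells. Its groups overlapped, since the male germ library lay above the male somatic library, and its log2 ratio of -1.11 ± 0.79 did not pass (limma adjusted p = 0.389).

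**Figure D2:**
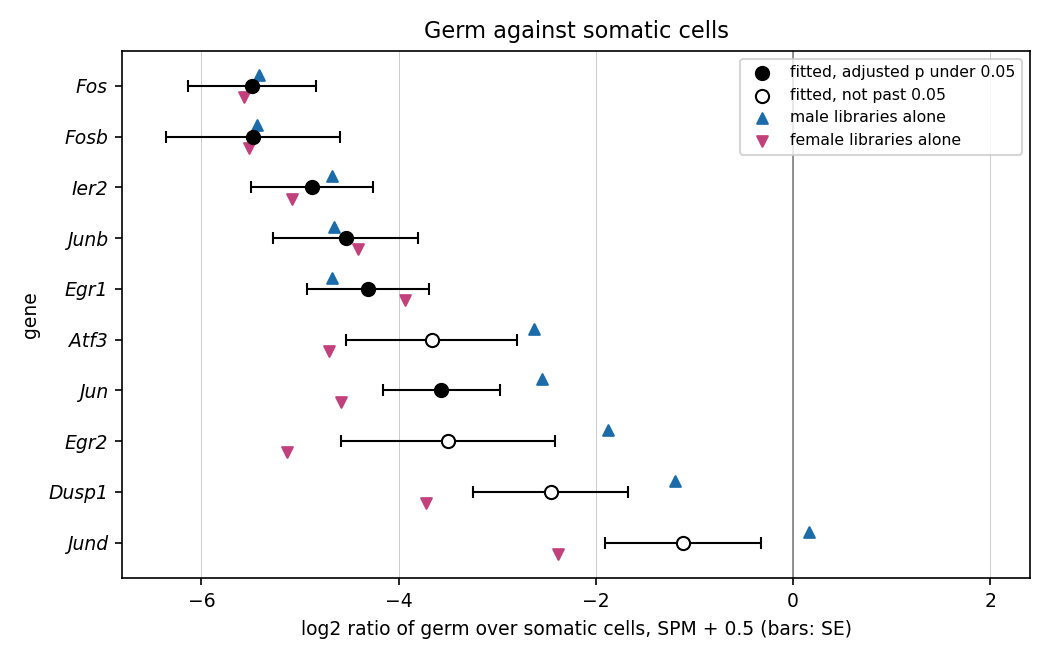
Log2 ratio of germ over somatic cells (SPM + 0.5) from the fit to all 4 libraries with its SE (circles, filled where the adjusted p is under 0.05), and the ratio of the male and female pair of libraries alone (triangles). The fitted ratios of Fos, Fosb, Ier2, Junb and Egr1 lie between -5.49 and -4.31. Both sexes are close together for Fos and Fosb, while for Egr1 the male pair gives -4.68 and the female pair -3.94. For Jund the male pair gives 0.16 and the female pair -2.39.

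The makeup of the JUN family differed between the libraries, a comparison that does not depend on library scaling. Per kilobase, Jund made up 75.4% of the summed Jun, Junb and Jund level in male germ cells (95% counting interval 73.9 to 76.9) and 50.4% in female germ cells (46.4 to 54.3). It made up 25.3% in male somatic cells (24.1 to 26.5) and 18.1% in female somatic cells (17.4 to 18.7). Junb made up 1.903% in male and 14.5% in female germ cells, against 24.2% in male and 23.5% in female somatic cells. Jund was thus the leading JUN gene in both germ libraries, and Jun in both somatic libraries, at 50.5% in male and 58.4% in female cells. The summed per-kilobase level of Fos and Fosb was 0.0949 of that of the JUN family in male germ cells and 0.697 of it in female germ cells. In male and female somatic cells it was 1.66 and 2.28 times the JUN family level. These shares and ratios are given as a description, and their difference between cell types was not tested.

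**Figure D3:**
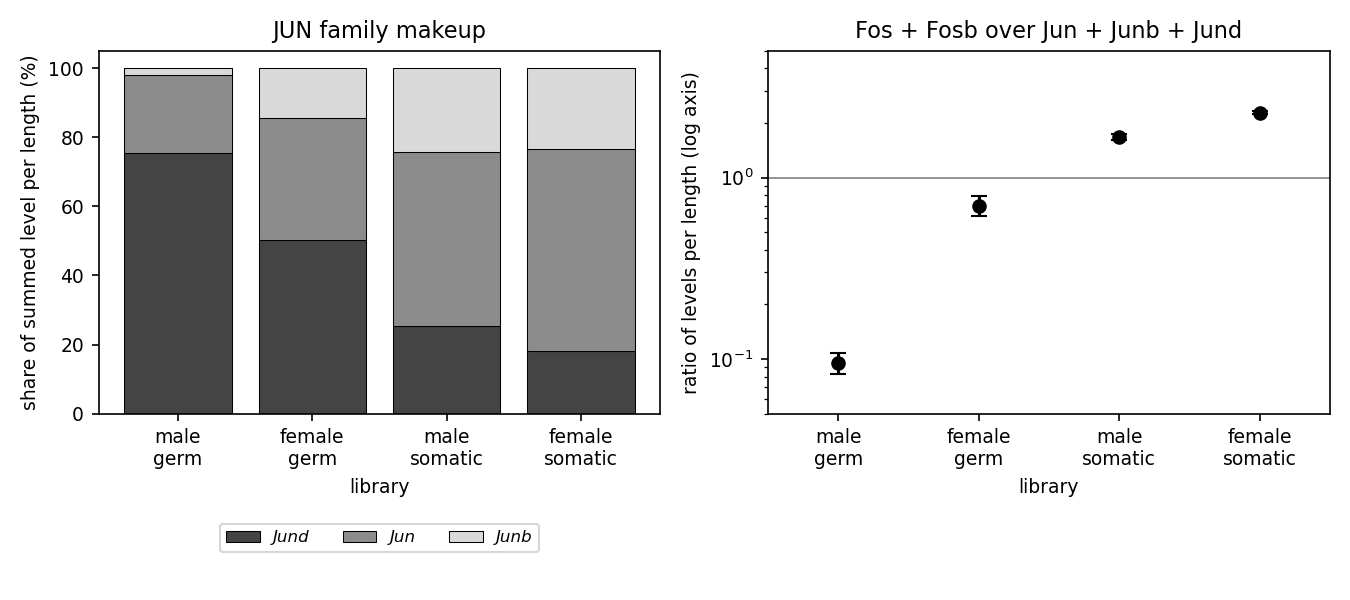
Left, share of Jund, Jun and Junb in their summed level per length (%) in each library. Right, ratio of the summed Fos and Fosb level to the summed JUN family level per length (log axis), with 95% counting intervals, which climbs across the 4 libraries as plotted, with 0.0949 in male germ cells and 2.28 in female somatic cells.

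Egr1, the zinc finger activator of the early growth response, lies at chr18:35020860-35024610 (mm9). It had 3.36 SPM in male and 7.80 SPM in female germ cells, against 98.6 SPM in male and 127 SPM in female somatic cells. Egr1 fell by 4.31 ± 0.62 on the log2 scale (SE, 2 libraries a side, limma adjusted p = 0.0352). Its relative Egr2 was scarce in germ cells, at 1.32 SPM in male and 0.779 SPM in female cells (35 and 13 fragments), and stood at 6.16 SPM in male and 44.3 SPM in female somatic cells. The groups of Egr2 did not overlap, yet the spread between the sexes was wide, and its log2 ratio of -3.50 ± 1.08 did not pass (limma adjusted p = 0.102). Per kilobase, Egr1 exceeded Egr2 in all 4 libraries, by 2.47-fold and 9.66-fold in male and female germ cells and by 15.4-fold and 2.76-fold in male and female somatic cells.

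Ier2, a small nuclear protein gene of the early response, stood at 3.16 SPM in male and 4.89 SPM in female germ cells against 93.4 SPM in male and 182 SPM in female somatic cells, without overlap. It fell by 4.88 ± 0.62 on the log2 scale (SE, 2 libraries a side, limma adjusted p = 0.0336) and ranked second of the 10 genes per kilobase in both somatic libraries. The stress factor gene Atf3 had 2.00 SPM in male and 1.68 SPM in female germ cells, against 14.9 SPM in male and 56.3 SPM in female somatic cells. Its log2 ratio was -3.67 ± 0.87 (limma adjusted p = 0.0631). Dusp1 had 12.1 SPM in male and 6.43 SPM in female germ cells, against 28.4 SPM in male and 90.8 SPM in female somatic cells, with a log2 ratio of -2.46 ± 0.78 (limma adjusted p = 0.108). Neither passed, although the germ libraries lay below the somatic libraries for both. Dusp1 kept 42.7% of the male somatic level in male germ cells but 7.08% of the female somatic level in female germ cells.

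The calls rested on few libraries. Without the male somatic library, Fos was the only one of the 10 genes called by limma, without the female somatic library none was (lowest limma adjusted p = 0.0923, 6 with an unadjusted p under 0.05), without the female germ library 4 were called (Fos, Junb, Egr1 and Ier2), and without the male germ library 6 (Fos, Jun, Junb, Jund, Egr1 and Ier2). With sex as a term in the fit 9 were called, all but Jund, and under upper-quartile scaling Jun was not called.

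Within each sex, the gap in Jun, Jund, Egr2, Atf3 and Dusp1 was wider in female cells, and that in Egr1 was wider in male cells. In female cells all 10 genes were at least 2-fold higher in somatic cells and reached 5 SPM there, which held for 29.2% of all genes tested. In male cells it held for 9, against 28.5% of all genes. None of the 10 was higher in germ cells by that rule in either sex, against 20.4% of all genes in male and 23.2% in female cells. The germ to somatic ratio of Egr2 was 0.214 in male cells (95% counting interval 0.140 to 0.314) and 0.0176 in female cells (0.00934 to 0.0302). For Jun it was 0.168 (0.155 to 0.182) in male and 0.0404 (0.0354 to 0.0458) in female cells. For Fos it was 0.0218 (0.0187 to 0.0254) in male and 0.0204 (0.0179 to 0.0232) in female cells, and these intervals overlap. For Egr1 it was 0.0341 (0.0273 to 0.0422) in male and 0.0615 (0.0512 to 0.0733) in female cells. For Junb it was 0.0295 (0.0205 to 0.0408) in male and 0.0413 (0.0315 to 0.0537) in female cells, with overlapping intervals. Each ratio sets 1 library against 1, so the intervals cover counting error only. Estimated depth was 25.0 M fragments in male germ and 17.5 M in male somatic cells, but 17.5 M in female germ and 24.3 M in female somatic cells. What part this has in the gaps was not tested.

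Between the somatic libraries, all 10 genes stood lower in male than in female cells, as did 48.9% of all genes tested. The median ratio of male over female was 0.445. Each counting interval lay below 1, and the share of all genes for which this holds was not computed. For 6 genes (Fos, Fosb, Jun, Egr2, Atf3 and Dusp1) the female library was at least 2-fold higher, against 6.69% of all genes tested, and for none the male library, against 7.88%. Egr2 had the lowest ratio, 0.139 (0.113 to 0.171), followed by Atf3 at 0.266 (0.231 to 0.304), Fosb at 0.298 (0.284 to 0.312) and Dusp1 at 0.313 (0.282 to 0.345). Egr1 and Jund differed least, at 0.778 (0.732 to 0.826) and 0.752 (0.703 to 0.804). All 10 genes stood lower in the male library under each of the 3 scalings. There is no replicate of either library, so no test was possible. The libraries also differed in estimated depth, at 17.5 M fragments in male and 24.3 M in female somatic cells. What part this has in the ratios was not tested.

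The same libraries differed in their cell type markers. The 7 pregranulosa markers summed to 109 SPM in male and 1151 SPM in female somatic cells. The 10 endothelial markers summed to 219 SPM in male and 305 SPM in female somatic cells, but without Kdr, left out after its values were seen, the other 9 summed to 146 SPM in male and 122 SPM in female cells. The remaining lists had the higher sum in male cells. In male and female somatic cells, the 12 Sertoli markers summed to 1811 and 1149.5 SPM, the 6 fetal Leydig markers to 1126 and 369 SPM, the 8 perivascular and smooth muscle markers to 1912 and 444 SPM, the 10 leukocyte markers to 147 and 51.7 SPM and the 10 erythroid markers to 59908 and 22189 SPM. Most of the female Sertoli sum came from Clu, Wt1 and Gata4, at 461, 367 and 277 SPM, against 679, 108 and 221 SPM in male cells. Of the 12 Sertoli markers 10 were higher in male cells, among them Amh (273 against 0.379 SPM), and 2, Wt1 and Gata4, were lower. Irx3, a pregranulosa marker, was listed at 0 in male somatic cells, and every other marker had signal in both somatic libraries. What part the cell makeup has in the lower level of the immediate early genes in male somatic cells was not tested.

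**Figure D4:**
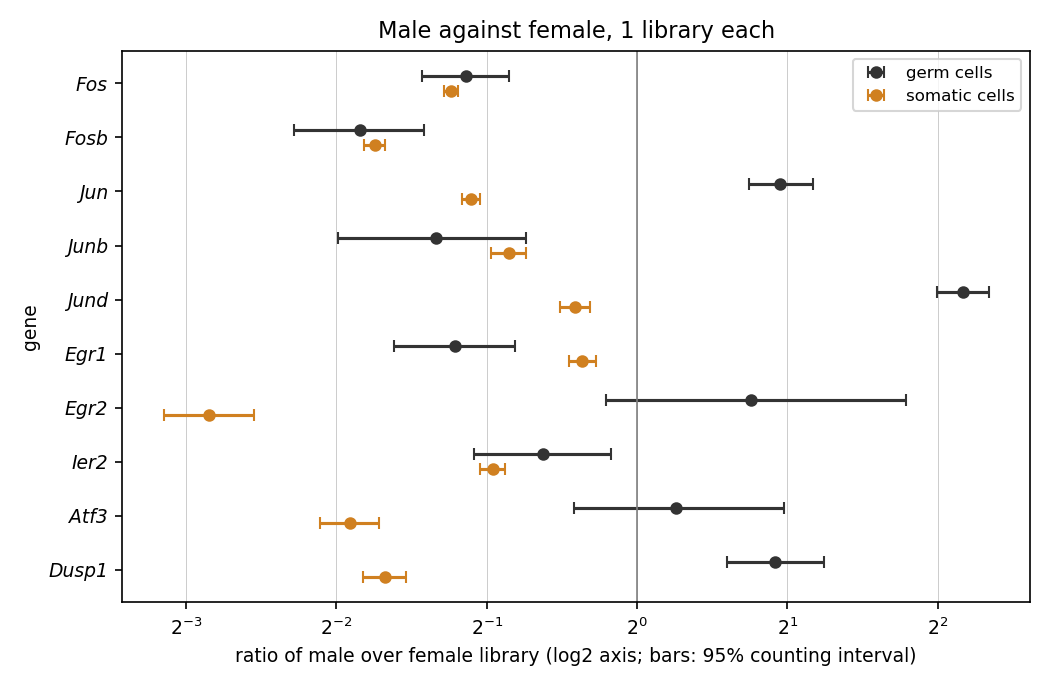
Ratio of the male over the female library for each gene (log2 axis) in germ cells and in somatic cells, with 95% counting intervals. All somatic ratios lie below 1, whereas the germ ratios run between 0.278 for Fosb and 4.49 for Jund.

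In germ cells the genes did not move together between the sexes. Jund was 4.49-fold higher in male germ cells (3.99 to 5.06), Jun 1.94-fold (1.68 to 2.25) and Dusp1 1.89-fold (1.51 to 2.37). The ratio of male over female was below 1 for Fosb at 0.278 (0.206 to 0.374), Junb at 0.395 (0.252 to 0.600), Egr1 at 0.431 (0.326 to 0.569), Fos at 0.454 (0.371 to 0.555) and Ier2 at 0.647 (0.472 to 0.887). For Egr2 (1.69, 0.867 to 3.46) and Atf3 (1.19, 0.749 to 1.97) a difference was not detectable at this depth. By the rule of at least 2-fold and 5 SPM in the higher library, 1 gene (Jund) was higher in male germ cells, against 20.9% of all genes tested, and 3 (Fos, Fosb and Egr1) in female germ cells, against 21.6%. With 10 genes, neither count stands clear of its background.

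Related gene lists were set beside the 10 genes. Of 123 further symbols of the early response and its signalling, 122 had a row. The other, Msk1, is an older symbol of Rps6ka5, which is also listed. Of the 122 genes 114 could be tested. Among those, 12 passed as lower and 1 as higher in germ cells (limma), against 5.56% and 2.5% of all genes.

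Among 10 tested AP-1 and ATF-like genes 1 passed, Fosl2, a FOS relative, at 5.17 SPM in male and 2.13 SPM in female germ cells against 97.1 SPM in male and 80.2 SPM in female somatic cells (log2 ratio -4.52 ± 0.65, limma adjusted p = 0.0352). Of the 2 EGR partner genes tested, Nab1 and Nab2, which hold EGR proteins back, neither passed, with log2 ratios of 0.55 and -0.85 (limma adjusted p = 0.737 and 0.614). Among the AP-1 and ATF-like genes, with a list median of -0.76, Jdp2, Fosl1 and Maff had log2 ratios of -2.74, -2.28 and -1.63 and did not pass. Of 19 other early response transcription factors 3 passed as lower: the nuclear receptor gene Nr4a1 (-4.86 ± 0.72, limma adjusted p = 0.0354), the antiproliferative gene Btg2 (-3.81 ± 0.61) and Myc (-3.42 ± 0.67). The list median was -1.47, and Id2, Hes1 and Klf6 had log2 ratios of -3.58, -3.12 and -2.91 without passing. Of 17 effector genes 3 passed as lower, the matricellular protein gene Cyr61 (-6.03 ± 0.51, limma adjusted p = 0.0328), the cytokine signalling inhibitor gene Socs3 (-4.80 ± 0.73) and the small GTPase gene Rhob (-3.28 ± 0.50), with a list median of -1.21. Ctgf, Gadd45g and Arl4d, at -3.64, -2.51 and -1.96, did not pass.

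**Figure D5:**
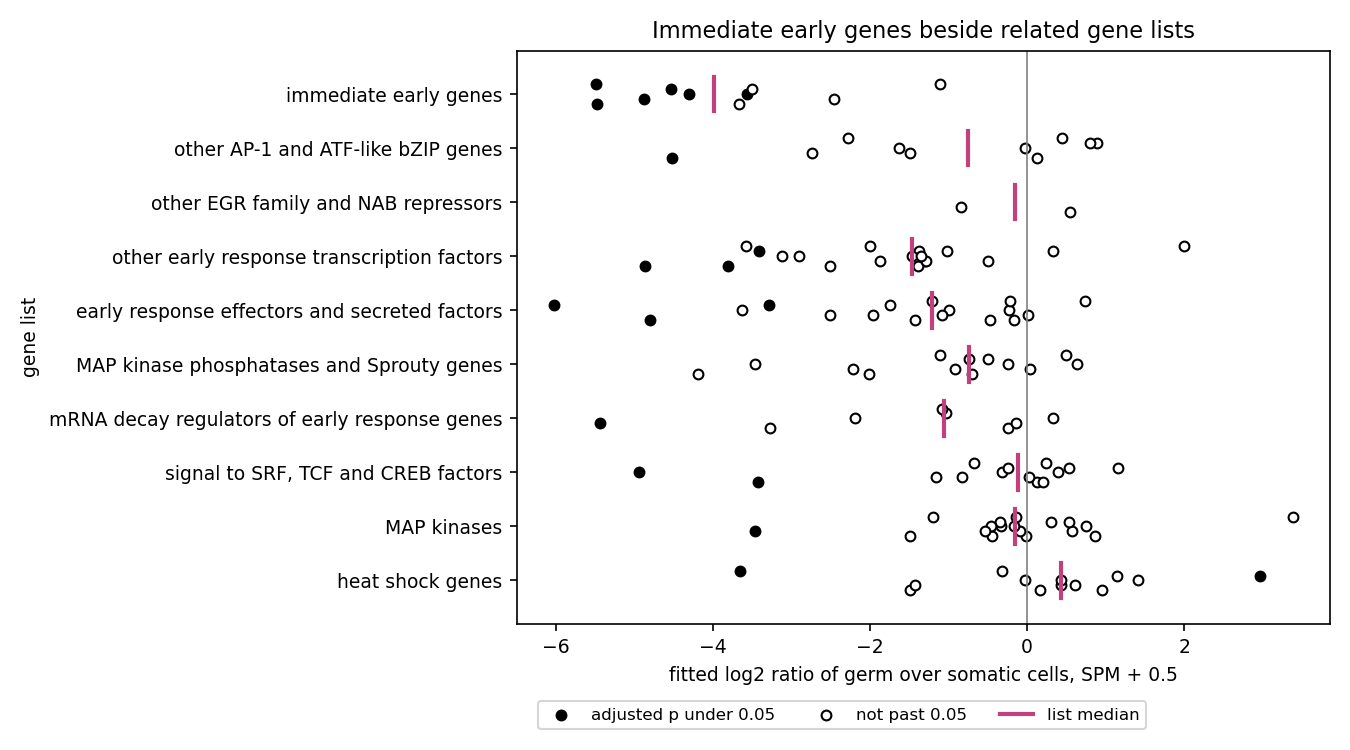
Fitted log2 ratio of germ over somatic cells for each tested gene of the immediate early genes and 9 related lists (filled where the adjusted p is under 0.05), with the list median as a bar. The median is -3.99 for the immediate early genes and lies between -1.47 and 0.43 for the other lists.

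Genes that relay and end the response were described in the same way. Of 13 MAP kinase phosphatase and Sprouty genes 0 passed limma (3 had an unadjusted p under 0.05), with a median log2 ratio of -0.73. The feedback genes Dusp6, Spry4 and Spry2 had -4.20, -3.46 and -2.21 (limma adjusted p = 0.0600, 0.0545 and 0.0792). In somatic cells Dusp6 was 2.05-fold (1.93 to 2.18) and Spry4 2.04-fold (1.75 to 2.37) higher in the male library, the opposite direction to the 10 immediate early genes. Of 8 mRNA decay genes, with a median log2 ratio of -1.06, 1 passed, Zfp36l1, which promotes decay of AU-rich mRNAs, at 2.999 SPM in male and 2.75 SPM in female germ cells against 123 SPM in male and 172 SPM in female somatic cells (log2 ratio -5.44 ± 0.54, limma adjusted p = 0.0328). Zfp36, Zfp36l2 and Khsrp, of the same list, had -3.27, -2.19 and -1.08 and did not pass. Among 14 tested genes for SRF, TCF and CREB signalling Rps6ka4, a kinase gene (-4.95 ± 0.72), and Elk3, a ternary complex factor gene (-3.43 ± 0.60), passed as lower (limma adjusted p = 0.0353 and 0.0405). Creb1, Rps6ka5 and Elk4, with log2 ratios of -1.16, 1.16 and -0.83, did not pass, and the list median was -0.11. Of 18 MAP kinase genes Map2k6, which activates p38 kinases, passed as lower (-3.46 ± 0.68, limma adjusted p = 0.0476), and the summed level of the list was 1739 SPM in male and 1836 SPM in female germ cells, against 1554 SPM in male and 1666 SPM in female somatic cells. Mapk10, Mapk11 and Map2k3 had log2 ratios of 3.38, -1.49 and -1.20 without passing.

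The heat shock list held genes called in both directions. Of 13 genes Hsp90aa1 rose in germ cells, at 3258 SPM in male and 2242 SPM in female germ cells against 309 SPM in male and 387 SPM in female somatic cells (log2 ratio 2.96 ± 0.42, limma adjusted p = 0.0352), and Hspb1 fell (-3.66 ± 0.69, limma adjusted p = 0.0444). The inducible genes Hspa1a and Hspa1b, near-identical copies whose reads may be shared, had ratios of -1.49 and -1.43, and Hsph1 had 1.41, without passing. Hspa1a stood at 90.7 SPM in male and 9.57 SPM in female germ cells and at 67.1 SPM in male and 107 SPM in female somatic cells. The list median was 0.43.

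By profile over the 4 libraries, the genes outside these lists nearest to the mean of the 10 genes were Il10rb, a cytokine receptor subunit gene, at a distance of 0.180 (Euclidean, centred log2 units), the dehydrogenase gene Aldh1b1 at 0.249 and Sfxn3 at 0.262. Samd5, the histone gene Hist2h2be, Hdhd3, Fam198a, Zfp503, B4galt4 and Aldh1a3, the last a retinaldehyde dehydrogenase gene, followed at 0.324 to 0.403. Of the 10 genes themselves Atf3 was nearest to their mean at 0.515 and Jund farthest at 3.26, against a median of 4.08 over all genes tested. The 10 genes define this mean, so their distance from it is partly set in advance. Each outside gene named here lay nearer to it than any of them.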

How the data were processed

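RNA was measured in 4 sorted fractions. Per the labels' protocols, ribosomal RNA was depleted and paired-end strand-specific libraries were sequenced. Per the submitters' processing notes, the tools included TopHat 1.2.0, CASAVA 1.9 and edgeR and the build was mm9, with no role or order stated. The sources used here do not say how genes were counted, on which annotation, or whether by strand. The deposited values, headed counts in the files, are a gene-level signal: they are whole numbers whose low values cluster at a spacing of 4.09, 6.08, 6.15 and 4.08 (male then female germ cells, then male and female somatic cells). They were treated as scaled by 1 factor per library, which is an assumption. Values between the clusters also occurred: in the same order, 0, 11, 11 and 0 of the whole numbers from 1 to 60 were never seen. A single factor alone would not give such values, so all fragment numbers are estimates. The deposited row length in bases (another value per gene, per the file headers) was used for per-kilobase levels. 1 fragment was valued at this spacing, and fragment numbers, counting intervals (exact conditional binomial for ratios, delta method for shares) and floors rest on it and cover counting error only, since PCR copies cannot be told from molecules.

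Of 20373 rows, 74 repeats of a position and all values were removed. Library totals were multiplied by TMM (trimmed mean of M) factors, which were 1.07, 0.956, 0.945 and 1.03. Estimated depth was 25.0, 17.5, 17.5 and 24.3 M fragments in the same order. R 4.3.3 and limma 3.58.1 (trended variance; adjustment after Benjamini and Hochberg over all 14148 genes that reached 1 SPM in 2 libraries or more) were run on log2(SPM + 0.5) where the male and female library stood as the 2 samples of a cell type; this scale understates differences of low genes. All 10 genes passed that filter. The script was tested on simulated data. Nothing says that libraries came from separate animals, and the p-values reflect nothing beyond the spread among these 4 libraries, which may be technical. Members and lists were chosen with earlier results of these data known. Named genes were all 10 genes and, per list, up to 4 passing genes in each direction and up to 3 others by size of ratio, plus the 10 nearest profiles.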

Additional observations from a re-analysis of the deposited data

Results flagged for a closer look

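Jun, Jund and Dusp1 differed between male and female cells in opposite directions in germ and in somatic cells, with every counting interval clear of 1. The share of all genes that meets this rule was not computed, so the pattern is not shown to be unusual. Of all genes tested, 51.0% were higher in male germ cells and 48.9% lower in male somatic cells. By a stricter pattern, at least 2-fold higher in male germ cells and at least 2-fold lower in male somatic cells, 625 of 14148 tested genes qualified and none of these 3 did. The difference was not tested, since each ratio sets 1 library against 1. The male germ and female somatic libraries, the higher of each pair for these genes, also had the smaller spacing (4.09 and 4.08, against 6.08 and 6.15). They had the greater estimated depth too (25.0 and 24.3 M fragments, against 17.5 M in female germ and in male somatic cells). The pattern thus runs along this split of the libraries, and what part the split has in it was not tested. The ratio of male over female was 1.94 (1.68 to 2.25) in germ cells and 0.465 (0.446 to 0.485) in somatic cells for Jun. It was 4.49 (3.99 to 5.06) in germ cells and 0.752 (0.703 to 0.804) in somatic cells for Jund, and 1.89 (1.51 to 2.37) and 0.313 (0.282 to 0.345) for Dusp1. Jund also had a germ over somatic ratio of 1.12 (1.04 to 1.198) in male cells and 0.187 (0.166 to 0.210) in female cells. The male ratio of Jund was 1.27 with library totals and 1.39 with upper-quartile scaling, so its direction held under both.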

How the results depend on the processing

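Over all genes, 786 passed as lower and 354 as higher in germ cells. With no filter on low values limma called 0 genes, 0 of the 10 immediate early genes and 0 of the related genes in either direction, with 4625 genes and 9 of the 10 at an unadjusted p under 0.05; the cause was not tested. With sex as a term, which pairs the germ and somatic library of each sex, 1955 genes passed as lower and 1094 as higher, among them 9 of the immediate early genes, all lower, with 22 related genes lower and 3 higher. Leaving out each library in turn gave 21 to 1927 genes lower and 37 to 1670 higher, 0 to 6 of the immediate early genes lower, and 0 to 23 related genes lower and 0 to 4 higher. Such a fit assumes that the lone library of a cell type varies like the others. The median male over female ratio of the 10 genes in germ cells, 0.921, turned to 1.03 with library totals and to 1.12 with upper-quartile scaling, with 5 genes on each side of 1 in all 3. Upper-quartile scaling moved the median fitted log2 ratio of all genes by 0.15. The fitted log2 ratio of each of the 10 genes stayed below 0 under every alternative run. Pseudocounts of 0.1 and 1, library totals and a fit with no trend left the calls of all 10 genes as they were; a filter of 5 SPM added Atf3. Depth limits the ratios of Egr2, Atf3 and Junb in germ cells most, with 13 to 59 fragments.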

Other observations

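The EGR co-repressor genes Nab1 and Nab2 stood at 131 and 133 SPM in male germ cells, against 19.5 and 16.0 SPM in female germ cells, and were 6.73-fold (6.01 to 7.57) and 8.27-fold (7.31 to 9.42) higher there. In male and female somatic cells Nab1 had 33.2 and 36.1 SPM, and Nab2 had 87.3 and 80.5 SPM. Egr4, chosen here after its values were seen and an EGR gene needed for male fertility in mice, stood at 13.7 SPM in male and 0.237 SPM in female germ cells, a ratio of 57.9 (22.1 to 211), with 0.531 SPM in male somatic cells and a listed 0 in female somatic cells. Egr1 ran the other way in germ cells, at 3.36 SPM in male and 7.80 SPM in female cells.

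In somatic cells several further early response genes, also named after their values were seen, stood lower in the male library, as the 10 genes did. Klf4, a zinc finger factor gene, had 8.15 SPM in male and 37.1 SPM in female somatic cells, and the kinase gene Plk2 had 68.2 and 243 SPM. Over all genes tested, 48.9% were lower and 50.5% higher in male than in female somatic cells. The genes lower in male somatic cells were 13 of 19 transcription factor genes, 13 of 17 effector genes, 10 of 13 heat shock genes, 6 of 8 mRNA decay genes, 10 of 18 MAP kinase genes, 8 of 14 SRF, TCF and CREB signalling genes and 1 of 2 EGR partner genes. Those higher in male somatic cells were 10 of 13 MAP kinase phosphatase and Sprouty genes and 7 of 10 AP-1 and ATF-like genes. Each of these sets 1 library against 1 and was not tested.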
